A study of Sus scrofa with 8 samples.

Results

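Interleukins, chemokines and their receptors were followed in pig left ventricular muscle remote from a myocardial infarct. The genes were those whose platform symbol begins with IL, CCL, CXCL, CCR or CXCR followed by a digit. They were taken from probe sets that carry 1 symbol only, and each gene was read at its brightest probe set over the 8 arrays. This gave 57 genes, measured by 66 probe sets, out of 6765 genes with a symbol of their own on the array. They comprised 12 CC chemokines, 7 CXC chemokines, 7 chemokine receptors, 18 interleukins, 12 interleukin receptors and IL18BP, a secreted protein that binds and neutralises IL-18.

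Every animal was a castrated male Yorkshire pig under 1 year of age that had had an infarct, with a mean weight of 54.5 kg. Of the 8 pigs, 3 were untreated, 3 received a low dose of glial growth factor 2 (GGF2, an isoform of neuregulin-1) at 0.67 mg/kg in each infusion, and 2 received a high dose of 2.0 mg/kg. Infusions ran for 4 weeks. Whether the untreated pigs were given a vehicle is not given in the sources used here. Each array comes from another pig by its label, so the tests set differences against the spread between pigs. With 1 array for each pig, that spread includes variation between arrays. The high-dose group rests on 2 pigs.

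Chemokines are small secreted proteins that draw leukocytes along gradients by acting on G protein-coupled receptors. Interleukins are cytokines that leukocytes and tissue cells use to signal to each other, mostly through receptors that activate JAK kinases and STAT factors or, for the IL-1 family, NF-kB. In the heart after infarction, chemokines such as CCL2 recruit monocytes, CXCL12 acts through CXCR4 on progenitor and immune cells, and IL-1 and IL-6 family cytokines accompany inflammation and scar formation. Neuregulin-1 acts on cardiac muscle and other cells through ERBB receptors.

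Values are log2 units of the array signal after RMA, so that a difference of 1 is a doubling of signal, and they ran from 2.13 to 15.01 over all probe sets. A mean below 3.8, the upper end of the arrays' lower quartiles, was taken as near background. Different probe sets bind with different strength, so levels are compared between pigs and not between genes. Of the 14 measured cardiomyocyte markers, none was near background, and their mean level was 13.79 to 13.84 in high-dose pigs, 13.73 to 13.77 in low-dose pigs and 13.70 to 13.81 in untreated pigs. The gap between the 3′ and 5′ probe sets of GAPDH, a sign of RNA integrity, was 1.46 to 1.52 in high-dose pigs, 1.56 to 1.85 in low-dose pigs and 1.47 to 1.72 in untreated pigs. For actin the gap was 2.89 to 2.95 in high-dose pigs, 2.68 to 3.39 in low-dose pigs and 2.50 to 3.32 in untreated pigs. The dimmer control named IRP was less even, at -1.59 and 1.48 in the high-dose pigs, -2.04 to 0.04 in low-dose pigs and -0.84 to 0.25 in untreated pigs.

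Of the 57 genes, 38 were at or above the limit and 19 lay near background. The classical secreted interleukins were mostly in the second set, with 12 of 18 interleukins near background. Those were IL1A, IL2, IL4, IL5, IL6, IL7, IL10, IL12A, IL12B, IL13, IL17A and IL21. The other genes near background were the chemokines CXCL8 and CCL28, the chemokine receptors CCR3 and CXCR6, and the interleukin receptor chains IL2RG, IL6R and IL18R1. By contrast, 11 of 12 CC chemokines, 6 of 7 CXC chemokines, 5 of 7 chemokine receptors and 9 of 12 interleukin receptors were at or above the limit. IL1A was the gene just under the limit, with a mean of 3.76, and CCL25 the gene just above it, with 3.91. Values of the 19 genes near background stayed between 2.45 and 3.96 in all 8 pigs and hold little or no information on change. Probe sets with IL33, IL1RL1, IL1RN, IL6ST or CXCL10 as their only symbol were not found, and these genes are not analysed here.

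**Figure D1:**
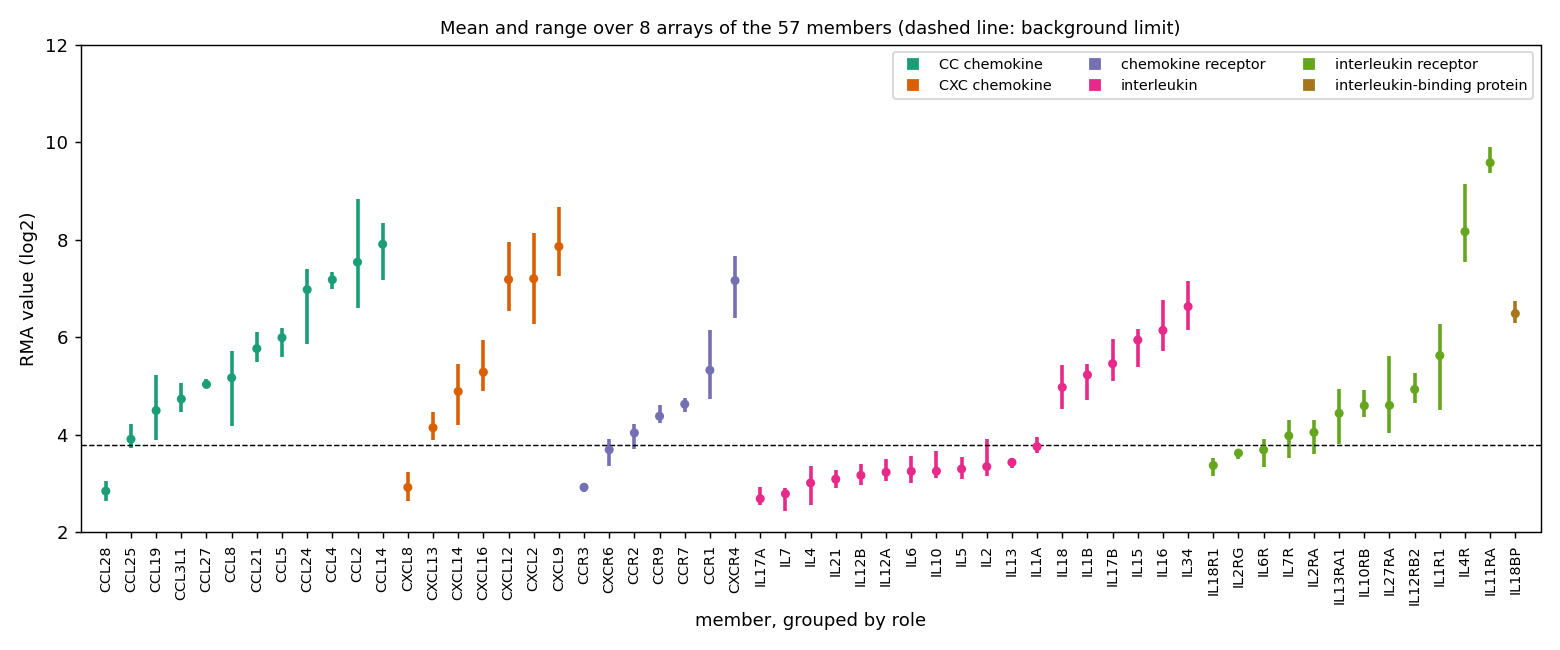
Mean (point) and range over 8 arrays (line) of the RMA value in log2 units for each of the 57 genes, grouped and coloured by role, with the background limit of 3.8 as a dashed line. Of the interleukins, 12 of 18 lie under the line, whereas 11 of 12 CC chemokines lie above it.

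Differences between groups were tested with limma over all 23999 probe sets with Benjamini-Hochberg adjustment, where a gene passed at an adjusted p under 0.05. None of the 57 genes passed in any of the 4 comparisons. At the high dose against untreated, 0 of 57 passed, where 0% of all probe sets passed. At an unadjusted p under 0.05, 1 gene was higher (CCL2) and 3 were lower (CCL24, CCL14 and CXCL12), against 3.61% and 4.36% of all probe sets. The high-dose and untreated values did not overlap in 15 genes, of which 6 were higher and 9 lower at the high dose, beside 14.7% and 12% of all probe sets. Over the 57 genes these shares are close to those of the whole array. Of the 38 genes at or above the limit, 4 were higher and 8 lower without overlap. Beside them stand 2653 and 2427 of the 17894 probe sets at or above the limit.

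At the low dose against untreated, 0 of 57 genes passed, as did 0% of all probe sets. No gene had an unadjusted p under 0.05, beside 2.77% of all probe sets that were higher and 1.74% that were lower at that level. The groups did not overlap in 1 gene that was higher, IL27RA, and 2 that were lower, CCR2 and IL2RG, beside 5.23% and 3.87% of all probe sets. With both doses set against untreated pigs, 0 genes passed and 0% of probe sets did. Here 0 genes were higher and 1 was lower at an unadjusted p under 0.05, beside 2.43% and 2.41%. In that comparison 0 genes were higher and 1 was lower in all 5 treated pigs than in all untreated pigs, beside 1.61% and 1.13%. Between the high and the low dose, 0 genes passed, beside 0.025% of probe sets. An unadjusted p under 0.05 was reached by 2 genes that were higher at the high dose, CCL25 and IL1A, and by 5 that were lower, CCL24, IL27RA, CCL14, IL16 and CXCL12, beside 4.38% and 5.85%. The values of these doses did not overlap in 5 genes that were higher and 7 that were lower, beside 13.2% and 13%.

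The median change of the 38 genes above background was -0.06 at the high dose and -0.03 at the low dose against untreated, beside 0.01 over all probe sets in each comparison. At the high dose 16 were higher and 22 lower than in untreated pigs. A difference of at least 0.5 was seen in 9 of the 38, and one of at least 1 in 2 of them, CCL2 and CCL24. Of the 17894 probe sets at or above the limit, 1599 differed by at least 0.5 and 347 by at least 1. The spread within groups was also wider in the 38 genes, as given below. Those 2 chemokines lay in opposite directions.

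CCL24, or eotaxin-2, attracts eosinophils through the receptor CCR3. It measured 7.32, 7.40 and 7.20 in the untreated pigs, 7.12, 7.31 and 7.01 in the low-dose pigs, and 5.86 and 6.62 in the high-dose pigs. Both high-dose values lay under all 6 others, as they also did in CCL14, CXCL12, IL27RA and IL18BP. The share of all probe sets with that order was not counted. The high-dose difference from the untreated mean was -1.07 ± 0.21 (SE), or 2.1-fold lower (adjusted p = 0.26; limma 95% interval -1.56 to -0.58). Without high-dose replicate 1 the difference was -0.69. Against the low dose it was -0.91 ± 0.21 (SE; adjusted p = 0.258). It was also the gene with an unadjusted p under 0.05 when both doses were set against untreated pigs, at -0.62 ± 0.17 (SE; adjusted p = 0.956). Its receptor CCR3 was near background.

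CCL14 is a CC chemokine found in plasma that acts on CCR1 once it has been cleaved. Its values were 7.88, 8.35 and 8.02 in untreated pigs, 8.27, 8.09 and 7.79 at the low dose, and 7.18 and 7.69 at the high dose. The high-dose pigs were again the lowest of all 8. The difference was -0.65 ± 0.21 (SE) against untreated (adjusted p = 0.491) and -0.62 ± 0.21 against the low dose (adjusted p = 0.386). Leaving out high-dose replicate 1 gave -0.40 against untreated.

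CCL2, the monocyte attractant also called MCP-1, lay the other way. It measured 6.60, 7.78 and 6.92 in untreated pigs, 8.33, 6.97 and 6.76 in low-dose pigs, and 8.83 and 8.14 in high-dose pigs. Both high-dose values were above every untreated value, but low-dose replicate 1 stood between them. The high-dose difference from untreated was 1.38 ± 0.50 (SE), or 2.61-fold, with a 95% interval of 0.25 to 2.52 (adjusted p = 0.526). Against the low dose it was 1.13 ± 0.50 (SE; adjusted p = 0.492). The difference between the low-dose and untreated means was 0.25 ± 0.45 (SE), well inside the spread within either group.

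Other CC chemokines showed smaller differences from untreated pigs. CCL4, a chemokine made by activated macrophages and lymphocytes, measured 7.00, 7.07 and 7.15 in untreated pigs, 7.17, 7.34 and 7.14 at the low dose, and 7.25 and 7.33 at the high dose. Its high-dose values lay just above the untreated ones, by 0.22 ± 0.12 (SE; adjusted p = 0.7). CCL5, which attracts T cells and monocytes, measured 6.19, 5.92 and 6.15 in untreated pigs, 5.59, 5.88 and 6.20 at the low dose, and 6.05 and 5.98 at the high dose, with all groups overlapping. CCL25, a gut and thymus chemokine, lay close to background at 3.76, 3.8 and 4.10 in untreated pigs, 3.89, 3.76 and 3.74 at the low dose, and 4.04 and 4.23 at the high dose. The difference of CCL25 between the high and the low dose was 0.34 ± 0.14 (SE; adjusted p = 0.467). CCL8, another monocyte attractant, is outside the rule for named genes and was singled out after its values were seen. It measured 4.91, 5.24 and 5.20 in untreated pigs, 5.73, 5.58 and 5.15 at the low dose, and 4.19 and 5.36 at the high dose. The high-dose pigs lay far apart, and the high minus low difference was -0.71 ± 0.32 (SE; adjusted p = 0.503) with overlapping groups. CCL8 differed from untreated by -0.34 ± 0.32 (SE) at the high dose and 0.37 ± 0.28 at the low dose.

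**Figure D2:**
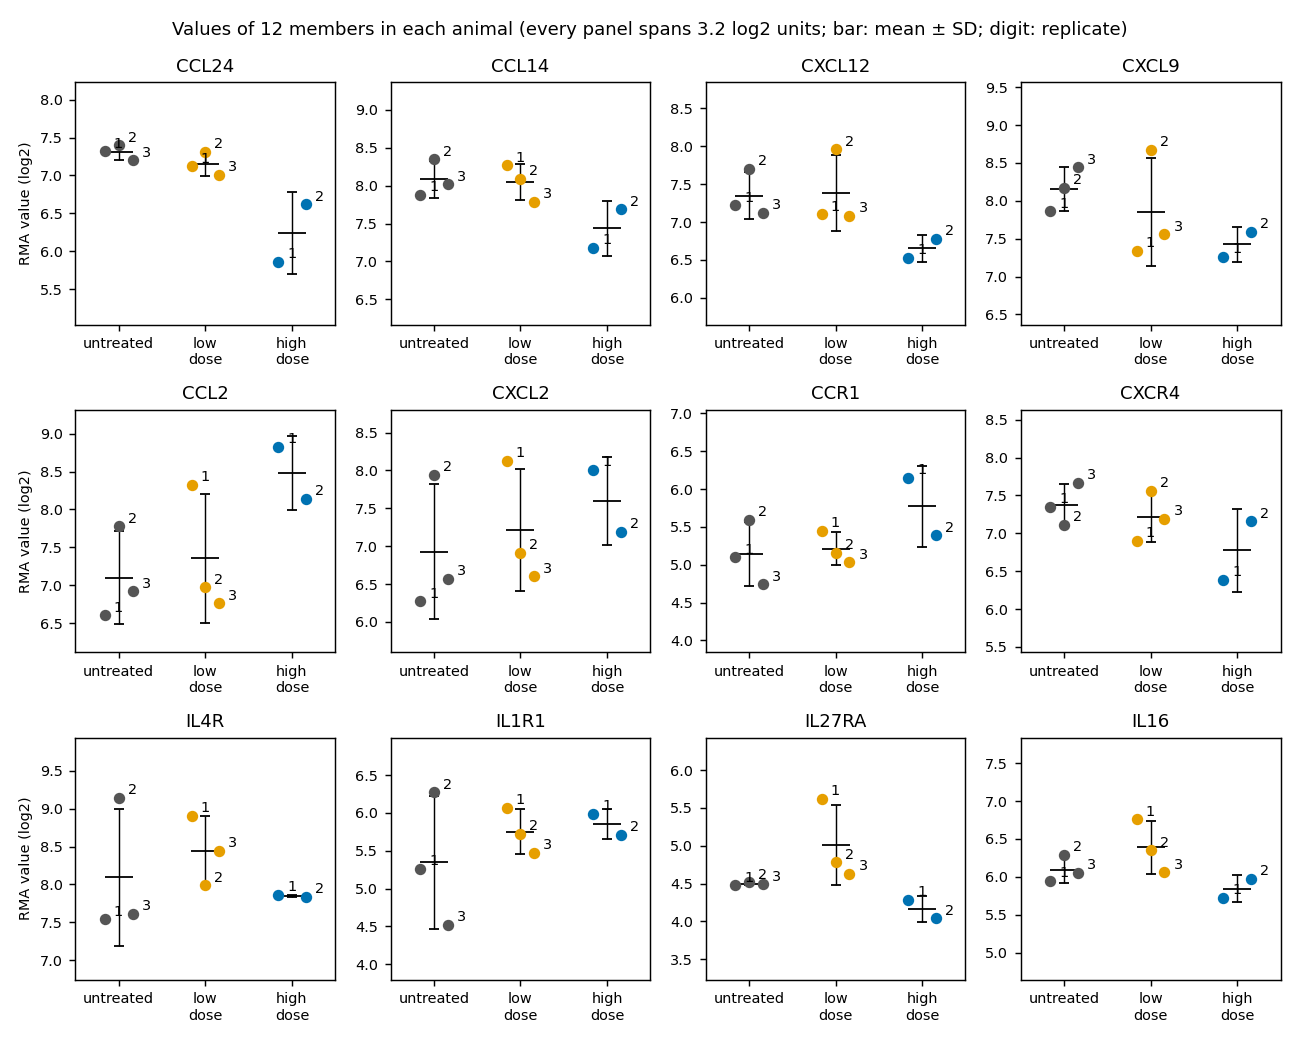
RMA values (log2) of 12 genes in each pig by group, from untreated through low dose to high dose, with the mean ± SD as a bar and replicate numbers beside the points. In CCL24, CCL14, CXCL12 and IL27RA both high-dose pigs lie under the other 6, and in CCL2, CXCL2 and IL4R the pigs of a group are widely spread.

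Among the CXC chemokines, CXCL12 is the stromal factor that acts through CXCR4. It measured 7.22, 7.70 and 7.12 in untreated pigs, 7.10, 7.96 and 7.08 at the low dose, and 6.53 and 6.78 at the high dose. Both high-dose pigs were under the other 6. The difference was -0.69 ± 0.29 (SE) against untreated (adjusted p = 0.598) and -0.73 ± 0.29 against the low dose (adjusted p = 0.441). Without low-dose replicate 2, the difference between the doses was -0.44. A dimmer probe set for CXCL12 read 6.62, 5.99 and 6.09 in untreated pigs, 5.98, 6.31 and 5.82 at the low dose, and 5.30 and 5.56 at the high dose. It placed the same 2 pigs lowest, with a difference from untreated of -0.81 ± 0.22 (SE).

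CXCR4, the receptor of CXCL12, measured 7.35, 7.11 and 7.67 in untreated pigs, 6.90, 7.56 and 7.19 at the low dose, and 6.39 and 7.16 at the high dose. High-dose replicate 1 was the lowest of all 8 pigs, whereas replicate 2 fell inside the untreated range. The difference from untreated was -0.60 ± 0.28 (SE; adjusted p = 0.632), and it was -0.22 without high-dose replicate 1 and -0.99 without high-dose replicate 2.

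CXCL9, which interferon-gamma induces and which attracts T cells through CXCR3, measured 7.86, 8.17 and 8.44 in untreated pigs, 7.34, 8.67 and 7.56 at the low dose, and 7.26 and 7.59 at the high dose. Both high-dose pigs were under every untreated pig, but the low-dose pigs spanned almost the whole range. The high-dose difference from untreated was -0.73 ± 0.36 (SE; adjusted p = 0.672). CXCL2, a neutrophil attractant, measured 6.27, 7.94 and 6.57 in untreated pigs, 8.13, 6.91 and 6.60 at the low dose, and 8.01 and 7.19 at the high dose. The groups overlapped, and the high-dose difference of 0.68 ± 0.57 (SE; adjusted p = 0.836) was 0.27 without high-dose replicate 1, 1.09 without high-dose replicate 2, 0.35 without untreated replicate 1 and 1.19 without untreated replicate 2. CXCL8, another neutrophil attractant, was near background, with a difference of 0.15 ± 0.19 (SE).

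The mean levels of macrophage and of fibroblast markers were lower in the same high-dose pigs. The mean level of the 13 macrophage and monocyte markers measured, of 17 listed, was 5.98 to 6.19 in high-dose pigs, 6.37 to 6.98 in low-dose pigs and 6.47 to 6.94 in untreated pigs. Of the 13, 11 were lower at the high dose than in untreated pigs, with a median of -0.52, and 7 of these had an unadjusted p under 0.05. Examples were LAPTM5 at -0.80 ± 0.16 (SE; adjusted p = 0.269) and the mannose receptor gene MRC1 at -1.17 ± 0.28 (SE; adjusted p = 0.383). The 2 higher ones were CD14 at 0.16 and MARCO at 0.01, named after their values were seen. The 9 fibroblast markers measured, of 12, averaged 8.18 to 8.60 in high-dose pigs, 8.98 to 9.15 in low-dose pigs and 8.79 to 9.35 in untreated pigs. Of these 9, 7 were lower at the high dose than in untreated pigs and 2, COL3A1 at 0.83 and TCF21 at 0.13, were higher, with a median of -0.77 and 6 lower genes at an unadjusted p under 0.05. The lowest were POSTN at -2.45 and FBN1 at -1.39, named with COL3A1 and TCF21 after their values were seen. None of these markers passed the test, and none was near background. Their part in the values of CCL24, CCL14 and CXCL12 was not tested, and in whole tissue fewer cells of a type and less RNA in each cell cannot be told apart.

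Other leukocyte markers did not follow the same order. The 11 T and NK cell markers averaged 4.49 to 4.57 in high-dose pigs, 4.46 to 4.63 in low-dose pigs and 4.55 to 4.66 in untreated pigs. Of the 9 neutrophil markers, 7 were near background in this tissue, S100A8 among them. The 2 B and plasma cell markers measured averaged 6.06 in both high-dose pigs and 5.67 to 6.01 in untreated pigs, and the 2 mast cell and eosinophil markers 5.21 to 5.44 in high-dose pigs and 5.32 to 5.72 in untreated pigs. In low-dose pigs these 2 lists averaged 5.65 to 5.91 and 5.28 to 5.82. Endothelial markers, 13 of 15 measured, averaged 6.28 to 6.50 at the high dose and 6.44 to 6.57 in untreated pigs. At the low dose they averaged 6.23 to 6.59. At the high dose 8 of the 13 were lower than in untreated pigs and 5 higher, and 3 lower ones had an unadjusted p under 0.05. The 7 smooth muscle and pericyte markers averaged 9.41 to 9.46 at the high dose and 8.77 to 9.50 in untreated pigs. The mean of the 3 erythrocyte markers did lie lower in both high-dose pigs, at 5.78 to 5.80. It was 6.00 to 6.11 in low-dose pigs and 6.05 to 6.15 in untreated pigs, with 2 markers lower and 1 higher at the high dose.

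The chemokine receptors CCR1 and CCR2 are carried by monocytes. CCR1 measured 5.10, 5.59 and 4.74 in untreated pigs, 5.45, 5.16 and 5.03 at the low dose, and 6.15 and 5.39 at the high dose. The difference of 0.63 ± 0.29 (SE; adjusted p = 0.632) from untreated rested mainly on high-dose replicate 1, since it was 0.25 without that pig and 1.01 without replicate 2. CCR2, the receptor of CCL2, measured 4.15, 4.23 and 4.13 in untreated pigs, 4.01, 3.72 and 4.13 at the low dose, and 4.04 and 3.91 at the high dose. It was the single gene of the 57 with all 5 treated pigs under all untreated pigs, by -0.21 when both doses were averaged (adjusted p = 0.956). The margin was slight, since low-dose replicate 3 and untreated replicate 3 both rounded to 4.13. Its mean over the arrays, 4.04, lies close to the background limit. At the high dose CCR2 differed from untreated by -0.20 ± 0.14 (SE; adjusted p = 0.789), too little to set a direction against that of CCL2.

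**Figure D3:**
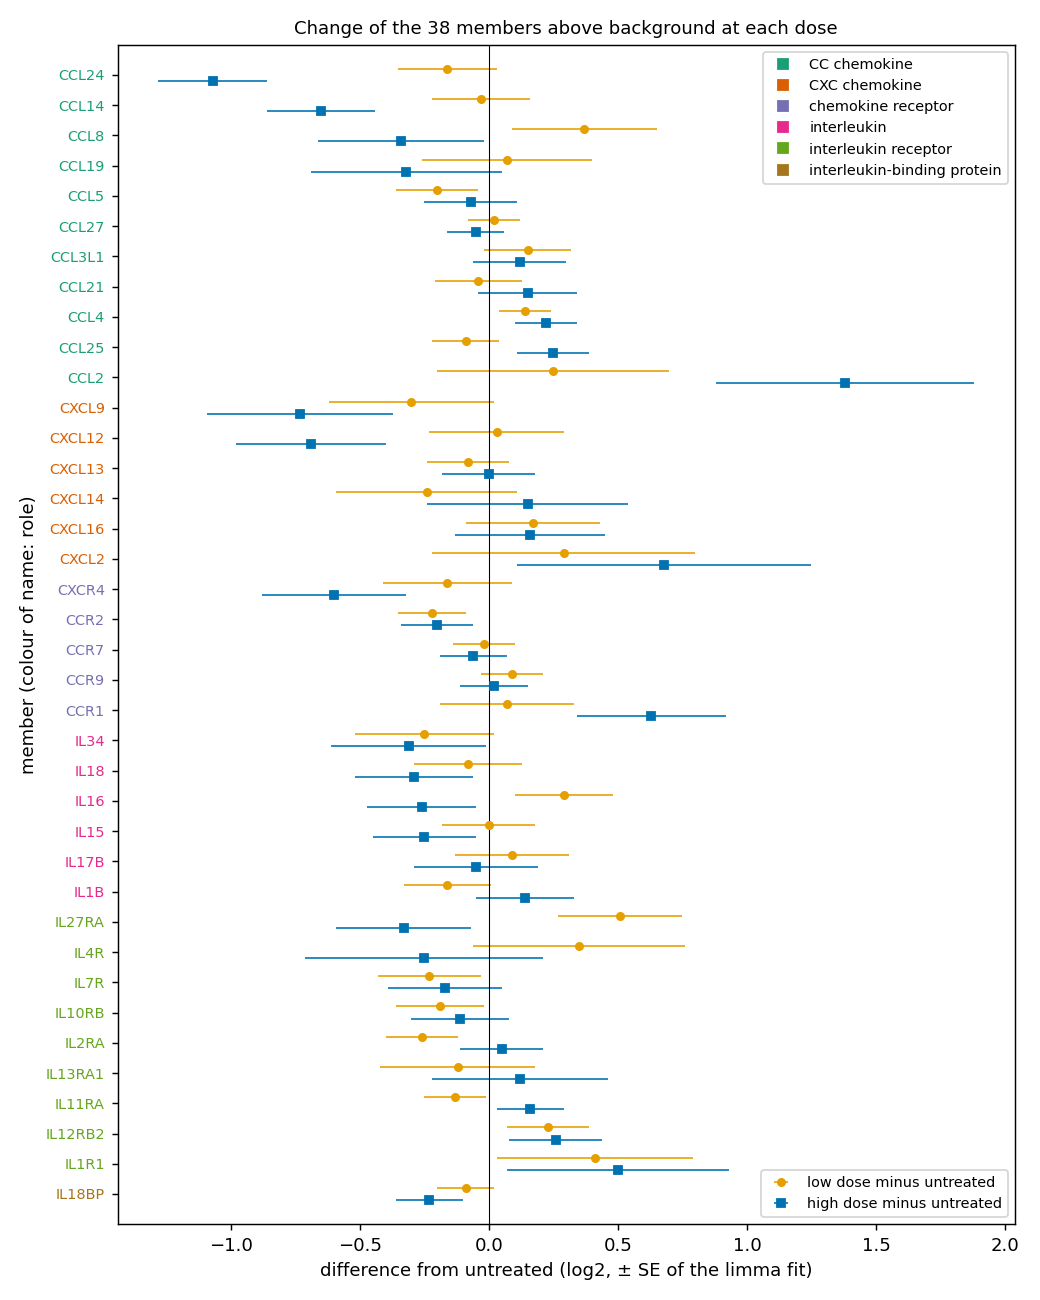
Difference from untreated in log2 units, ± SE of the limma fit, for the low dose (circles) and the high dose (squares) in the 38 genes above background, with names coloured by role. At the high dose CCL2 lies at 1.38 and CCL24 at -1.07, and the low-dose points lie between -0.30 and 0.51.

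Of the 6 interleukins above background, 5 were lower and 1 higher at the high dose than in untreated pigs, with a median of -0.25 and none with an unadjusted p under 0.05. IL1B, the inflammasome product, measured 5.21, 5.11 and 5.45 in untreated pigs, 5.27, 5.29 and 4.72 at the low dose, and 5.37 and 5.43 at the high dose. Its high-dose and untreated values overlapped, and its high-dose values lay above the low-dose values, by 0.30 ± 0.19 (SE). A dimmer probe set for IL1B, close to the background limit, gave -0.10 ± 0.14 (SE) between those doses. IL18, which the same protease releases, measured 5.10, 4.93 and 5.21 in untreated pigs, 5.05, 5.43 and 4.53 at the low dose, and 4.86 and 4.72 at the high dose. The difference of IL18 between the high dose and untreated was -0.29 ± 0.23 (SE; adjusted p = 0.821). IL16, a chemoattractant for CD4-bearing cells, measured 5.95, 6.29 and 6.05 in untreated pigs, 6.76, 6.35 and 6.06 at the low dose, and 5.72 and 5.97 at the high dose. The low-dose pigs all lay above the high-dose pigs, with a high minus low difference of -0.55 ± 0.21 (SE; adjusted p = 0.426) that was -0.36 without low-dose replicate 1.

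Of the interleukins known from inflammation, IL6, IL10 and IL1A gave no usable change. IL6 had a high-dose difference of 0.25 ± 0.18 (SE), IL10, an anti-inflammatory cytokine, one of -0.07 ± 0.16, and IL1A one of 0.22 ± 0.11, all in probe sets near background. For IL1A the difference between the high and the low dose was 0.26 ± 0.11 (SE; adjusted p = 0.486), but every value lay between 3.62 and 3.96. IL6R, the ligand-binding chain for IL-6, was near background as well, with a high-dose difference of 0.20 ± 0.15 (SE).

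IL11RA, the binding chain for IL-11, had a mean of 9.58 over the arrays and was steady between pigs. Its values were 9.65, 9.51 and 9.61 in untreated pigs, 9.49, 9.36 and 9.54 at the low dose, and 9.91 and 9.59 at the high dose. The high-dose difference was 0.16 ± 0.13 (SE; adjusted p = 0.828) and came from high-dose replicate 1, for it was 0.00 without that pig and 0.32 without replicate 2.

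IL27RA, a chain of the IL-27 receptor on T cells and other leukocytes, measured 4.48, 4.52 and 4.49 in untreated pigs, 5.62, 4.78 and 4.63 at the low dose, and 4.29 and 4.04 at the high dose. All low-dose pigs lay above the untreated pigs and both high-dose pigs below them. The high minus low difference was -0.84 ± 0.26 (SE; adjusted p = 0.345) and was -0.54 without low-dose replicate 1. The low-dose difference from untreated, 0.51 ± 0.24 (SE; adjusted p = 0.998), was the largest low-dose difference among the 38 genes. IL12RB2, a chain of the IL-12 receptor, measured 4.81, 4.65 and 4.87 in untreated pigs, 5.07, 4.70 and 5.27 at the low dose, and 4.93 and 5.15 at the high dose, and differed by 0.26 ± 0.18 (SE; adjusted p = 0.77) at the high dose. At the low dose IL12RB2 differed by 0.23 ± 0.16 (SE), which was 0.11 without low-dose replicate 3 and 0.39 without replicate 2. IL2RA, the inducible chain of the IL-2 receptor, measured 4.03, 4.20 and 4.18 in untreated pigs, 4.07, 3.96 and 3.60 at the low dose, and 4.30 and 4.07 at the high dose. Its low-dose difference was -0.26 ± 0.14 (SE) with overlapping groups, and -0.12 without low-dose replicate 3.

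IL4R, the alpha chain shared by the IL-4 receptor and a receptor of IL-13, varied most within the untreated group. It measured 7.54, 9.14 and 7.61 in untreated pigs, 8.91, 7.99 and 8.44 at the low dose, and 7.86 and 7.84 at the high dose. Untreated replicate 2 stood far above its group, and the high-dose difference of -0.25 ± 0.46 (SE) became 0.27 without that pig. A dimmer probe set for IL4R read 6.58, 6.58 and 6.40 in untreated pigs, 6.76, 6.66 and 6.58 at the low dose, and 6.66 and 6.71 at the high dose, and did not show the high value of untreated replicate 2. IL1R1, the signalling receptor of IL-1, measured 5.26, 6.27 and 4.52 in untreated pigs, 6.07, 5.72 and 5.47 at the low dose, and 5.99 and 5.71 at the high dose. Its high-dose difference of 0.50 ± 0.43 (SE; adjusted p = 0.838) was 0.96 without untreated replicate 2 and 0.08 without untreated replicate 3. A dimmer probe set for IL1R1, with a mean of 4.04, read 4.01, 4.08 and 3.98 in untreated pigs. It lay close to the background limit, differed by 0.06 ± 0.11 (SE) at the high dose and did not show the wide spread of the untreated pigs.

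Spread between pigs of a group was wider in these genes than on the array at large. The median within-group SD of the 38 genes was 0.27, ranging from 0.07 to 0.81, beside 0.19 for the 17894 probe sets at or above the background limit. CXCL2 had an SD of 0.81, CCL2 0.70, IL4R 0.64 and IL1R1 0.60, at the 98.7, 98.1, 97.4 and 96.7 percentile of those probe sets. The 95% interval of a high-dose difference from untreated reached, in the median of the 38 genes, 0.49 to either side of the estimate.

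A share of that spread ran through the same pigs. Untreated replicate 2 was the highest of its group in 23 of 38 genes, or 60.5%, beside 34.2% of all probe sets at or above the limit. Low-dose replicate 1 was the highest of its group in 16, or 42.1%, beside 32.1%, and both held in 14, or 36.8%, beside 15.0%. This pair carries neighbouring tag numbers in the labels although it spans 2 groups. Untreated replicates 1 and 3 also have neighbouring numbers, as do the 2 high-dose pigs. What the numbers stand for is not given there, and anything shared by the high-dose pair cannot be told apart from the dose. Untreated replicate 2 exceeded the mean of its group mates by 1.57 in IL4R, 1.52 in CXCL2, 1.39 in IL1R1 and 1.02 in CCL2. Low-dose replicate 1 exceeded its group mates by 0.70, 1.38, 0.48 and 1.46 in the same genes. The dimmer probe sets of IL4R and IL1R1 did not show an excess of that size in untreated replicate 2. The pattern across these pigs was noted after the values were seen.

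**Figure D4:**
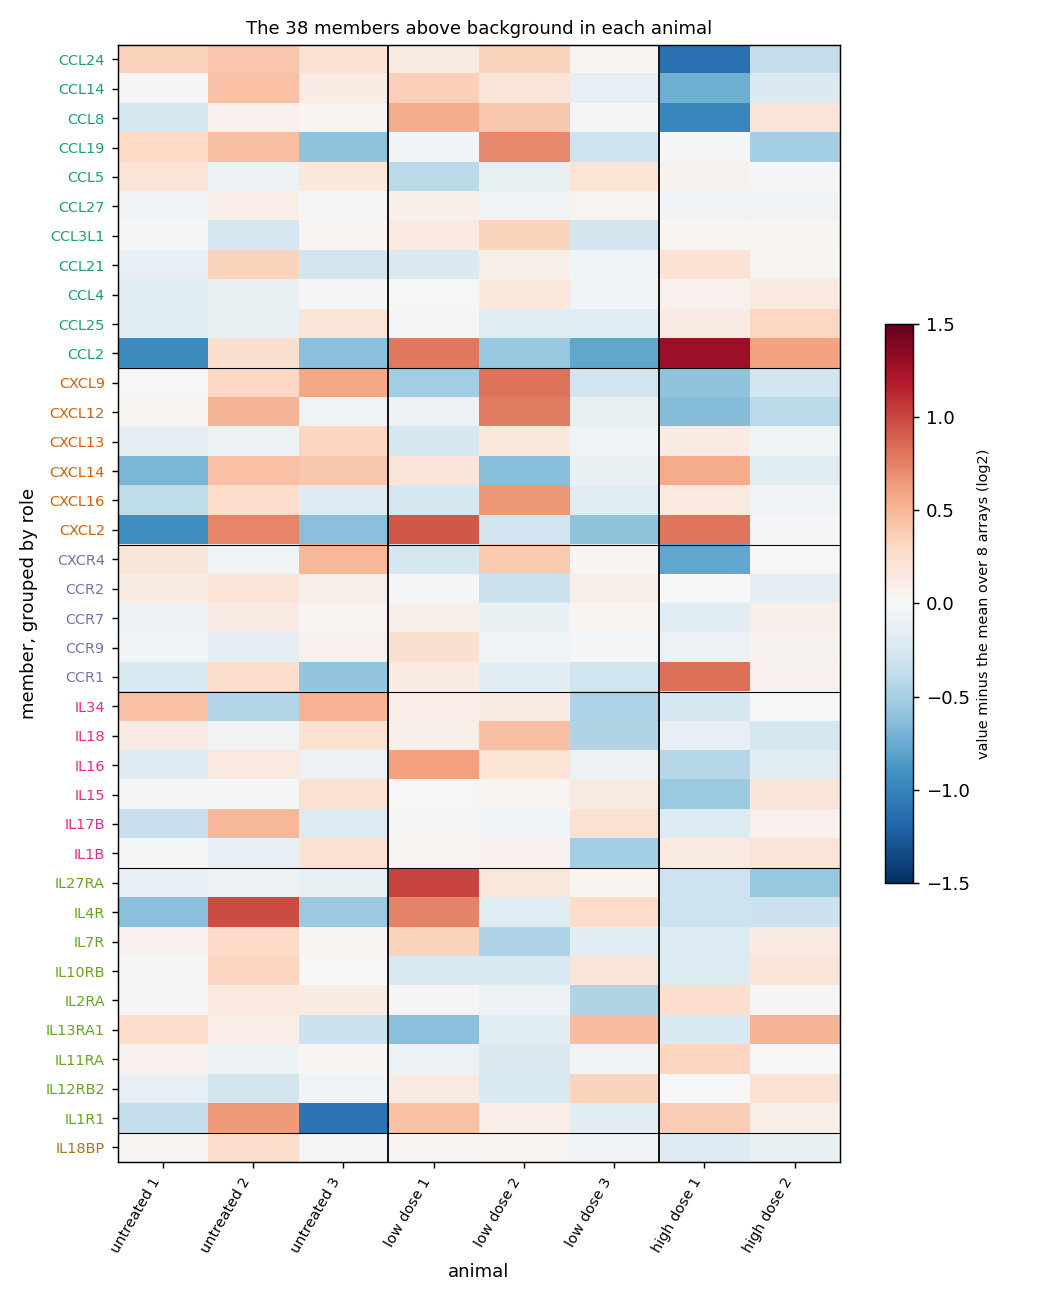
Value of each of the 38 genes above background in each pig, minus the mean of that gene over the 8 arrays (log2; red above, blue below), with genes grouped by role. Untreated replicate 2 and low-dose replicate 1 are red in CXCL2, CCL2, IL4R and IL1R1.

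Immediate early genes, which cells switch on quickly after many stimuli, lay high in the same pigs. The mean level of the 14 immediate early genes measured was 8.82, 10.33 and 8.89 in untreated pigs, 10.44, 8.55 and 9.82 at the low dose, and 11.47 and 11.14 at the high dose. All 14 were higher at the high dose than in untreated pigs, with a median of 1.99, and 10 had an unadjusted p under 0.05. NR4A2 differed by 3.31 and KLF4 by 1.52, and none of the 14 passed the test. The 4 pigs with the highest immediate early mean were also the 4 highest pigs for CCL2, CXCL2 and CCR1. That match was found in 3 of 38 genes, or 7.89%, beside 4.25% of all probe sets at or above the limit. Its part in the high-dose values of CCL2, CXCL2 and CCR1 was not tested. With untreated replicate 2 and low-dose replicate 1 both left out, the high-dose difference of CCL2 was 1.73 (adjusted p = 0.0597). That pair was singled out after the values were seen, and each had the highest CCL2 value of its group. Leaving them out had to raise the difference and also narrowed the spread, so the smaller p is no evidence of a change.

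Pathway genes around these signals gave few differences either. Of the 18 JAK, STAT and SOCS genes measured, 7 were higher and 11 lower at the high dose than in untreated pigs, with a median of -0.01. The kinase TYK2, which serves the IL-12 and interferon receptors, was at -0.35 ± 0.11 (SE; adjusted p = 0.449) and was the 1 gene of that list with an unadjusted p under 0.05. In the 15 genes of IL-1 and Toll-like receptor signalling to NF-kB, 9 were higher and 6 lower, with a median of 0.04. CASP1, which cleaves IL-1 beta and IL-18 to their active forms, was at -0.64 ± 0.35 (SE; adjusted p = 0.71). Of 12 cytokines outside the symbol prefixes, 6 were higher and 6 lower, with a median of 0.00, and of 5 such receptors 2 were higher and 3 lower. TGFB1, a fibrogenic cytokine, differed by 0.32 between the low dose and untreated (adjusted p = 0.998).

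Leukocyte adhesion genes, which let cells leave the bloodstream, were divided. Of 10 measured, 5 were higher and 5 lower at the high dose than in untreated pigs, and 4 had an unadjusted p under 0.05. ICAM2, an adhesion molecule of resting endothelium, was at -0.52 ± 0.15 (SE; adjusted p = 0.422) and PECAM1, a junction molecule of endothelium, at -0.57 ± 0.20 (SE; adjusted p = 0.511). The 2 higher ones were the inducible molecules ICAM1, at 0.52 ± 0.18 (SE; adjusted p = 0.517), and SELE, at 0.81 ± 0.30 (SE; adjusted p = 0.543), both named after their values were seen. VCAM1, another inducible molecule of that list, lay the other way, at -0.42 ± 0.35 (SE; adjusted p = 0.834), and was also named after its values were seen. SELE lay below 3.8 in 7 of the 8 pigs and read 4.58 in high-dose replicate 1. None of the genes on these 5 lists passed the test in any comparison with untreated pigs.

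The 17 genes above background that the naming rule did not take differed from untreated by -0.34 to 0.16 at the high dose and -0.25 to 0.37 at the low dose. They include the lymph node chemokines CCL19 and CCL21 with their receptor CCR7, the CCL25 receptor CCR9, the membrane-bound chemokine CXCL16, the macrophage growth factor IL34, and IL15, which sustains NK cells. The 19 genes near background differed by -0.15 to 0.25 at the high dose and by -0.26 to 0.26 at the low dose.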

How the data were processed

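RNA of 8 pigs was hybridised to 1 Affymetrix porcine array each. The authors deposited log2 values for 24123 probe sets. The submitters' processing notes name RMA and Partek 6.6, without their roles or settings. RMA makes the arrays' distributions alike, so a change shared by most genes would be lost. Groups came from the treatment label. Leaving out 124 control probe sets, limma 3.58.1 in R 4.3.3 fitted a mean for each group to all 8 arrays (5 residual and 3.504 prior degrees of freedom), with 4 contrasts. Arrays have no read depth, and their number limits precision. Symbols came from the platform annotation, and all 57 matched RefSeq symbols.

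Values per pig are given for the 6 genes above background with the smallest p in each contrast, the 10 with the highest mean and a list of genes of interest. Up to 2 genes with the smallest p were named from each other list. Genes and lists were chosen with earlier results of these data known. Alternatives were other variance priors, normalizations, filters, array weights, probe set averages and leaving out pigs. The fit was tested on simulated data. No sequences or coordinates are given.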

Additional observations from a re-analysis of the deposited data

Results flagged for a closer look

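IL27RA stood out because the doses lay on opposite sides of the untreated pigs, every high-dose pig below and every low-dose pig above them. The difference between the doses was -0.84 ± 0.26 (SE) in limma (adjusted p = 0.345), so it did not pass. Low-dose replicate 1, at 5.62, lay furthest from the untreated pigs. The order was picked out after the values were seen, and its share among all probe sets was not counted. Taken singly, 12% of all probe sets lay lower without overlap at the high dose than in untreated pigs. At the low dose 5.23% lay higher without overlap.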

How the results depend on the processing

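None of the 57 genes passed in any of the 4 comparisons under any of the 18 settings tried. Genes with an unadjusted p under 0.05 at the high dose against untreated numbered 4, 7 with array weights, 8 without untreated replicate 2 and low-dose replicate 1 together, and 1 to 8 leaving out single pigs. At the low dose they numbered 0, then 1, 3 and 0 to 5 under those settings. With both doses against untreated they numbered 1, then 2, 6 and 1 to 8, and 2 with probe sets averaged by gene. Between the doses they numbered 7, then 8 with array weights and 10 without untreated replicate 2 and low-dose replicate 1 together. In that comparison they numbered 9 with median centring and 5 with renewed quantile normalization. Over all probe sets, 0 passed at the high dose against untreated, but 13 did with array weights, 55 without that pair, 4 with an intensity trend, 3 with median centring, 2 with only the groups compared, 9 with renewed quantile normalization, 7 with a robust prior, 10 at an adjusted p under 0.1, and 0 to 19 leaving out single pigs. Without that pair, 1 passed at the low dose and 1 with both doses, against 0 each. Between the doses 6 passed, against 10 with array weights, 12 without that pair, 0 with only the groups compared, 14 at an adjusted p under 0.1, and 0 to 7 leaving out single pigs. The cause was not tested, and that pair was singled out after the values were seen. IL4R at the high dose turned to 0.27 without that pair, ran from -0.53 to 0.27 leaving out single pigs (0.27 without untreated replicate 2), and the other 25 of 26 named differences kept their sign in every setting. No paired analysis was possible because the labels carry no replicate numbers that tie pigs of different groups. Leaving out a high-dose pig leaves 1 in that group, which is then assumed to vary like the others. Signal near background limits 19 of the 57 genes.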
